A study of Mus musculus with 4 samples.

Results

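The genes described here are 10 transcripts of phagocytic and lipid-associated macrophages, Trem2, Gpnmb, Lgals3, Cd68, Lyz2, Tyrobp, Fcer1g, Apoe, Cd14 and Ms4a7. They were taken by gene name from a table of 55401 genes measured in mouse heart by RNA sequencing. Each name matched 1 row, and all 10 passed the filter on low counts. The MI hearts (n = 2) were labelled with myocardial infarction, the death of heart muscle for want of blood, after a ligation operation. Their controls (Sham, n = 2) had undergone thoracotomy with no ligation, and both groups were sampled at day 28. The labels used here give no strain or age, and they call every sample heart, whereas the design text sets infarcted tissue against normal left ventricle, so the region taken from each heart is not known. Hearts treated with cyanidin, the plant pigment in the title of the series, were not analysed here.

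Macrophages clear dead cells and debris after an infarct. TREM2, a surface receptor for lipids and for the debris of dying cells, has no signalling tail of its own and relies on the adapter TYROBP, also called DAP12. FCER1G is the matching adapter of the activating Fc receptors. Both adapters carry a tyrosine-based activation motif (ITAM) that recruits the kinase SYK. Macrophages loaded with lipid from engulfed cells are known in mouse adipose tissue, brain and atherosclerotic vessels for high Trem2, Gpnmb, Lgals3 and Apoe. None of the 10 is made by macrophages alone. Lyz2 is also abundant in neutrophils and in the alveolar type 2 cells of the lung, Apoe in liver and vascular smooth muscle, Gpnmb in pigment cells and bone, and Lgals3 in epithelia and activated fibroblasts.

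The 4 libraries differed in tissue content in ways their labels do not give. Summed estimated counts were between 66624106 and 75979320 per library. MI replicate 1 carried lung transcripts. Of 12 alveolar epithelial markers, 0 were listed at 0 there, against 6 in MI replicate 2 and 8 and 6 in the Sham libraries. These markers summed to 166 FPKM in MI replicate 1 (fragments scaled to gene length and library size), against 2.51 in MI replicate 2, and 1.84 and 3.19 in the Sham libraries. Sftpc, a surfactant protein, had 122 FPKM in MI replicate 1 and was listed at 0 in the other 3 libraries, and the airway secretoglobin Scgb1a1 had 131 FPKM against at most 0.11. Sham replicate 2 carried atrial and fat transcripts, with Myl7 (atrial myosin light chain) at 1128 FPKM and Adipoq (adiponectin) at 16 FPKM, against at most 1.2 and 0 FPKM in the others. Neutrophil markers were highest in Sham replicate 1, where they summed to 85.2 FPKM. They summed to 25 and 11.8 FPKM in the MI libraries and 17.8 in Sham replicate 2. Macrophages themselves were represented in every library. All 15 pan-macrophage genes had counts in each, and their sum was 249 and 142 FPKM in MI replicates 1 and 2, against 118 and 133 FPKM in Sham replicates 1 and 2. MI replicate 1 held the most of both macrophage and lung transcripts. The 13 alveolar macrophage markers summed to 57.8 and 42.4 FPKM in MI, against 32.5 and 11.9 FPKM in Sham, and 1 of them was listed at 0 in MI replicate 1 against 3 in each other library. Most of these sums came from Car4, Fabp1 and Mrc1, which other cell types also express. The other 10 markers summed to 21.4 and 1.08 FPKM in MI, against 3.81 and 2.3 FPKM in Sham, so that MI replicate 2 had the least. These 3 were set apart after their values were seen. The part that lung macrophages or lung epithelium had in the values below was not tested. In whole tissue, more cells of a type and more RNA per cell cannot be told apart.

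**Figure D1:**
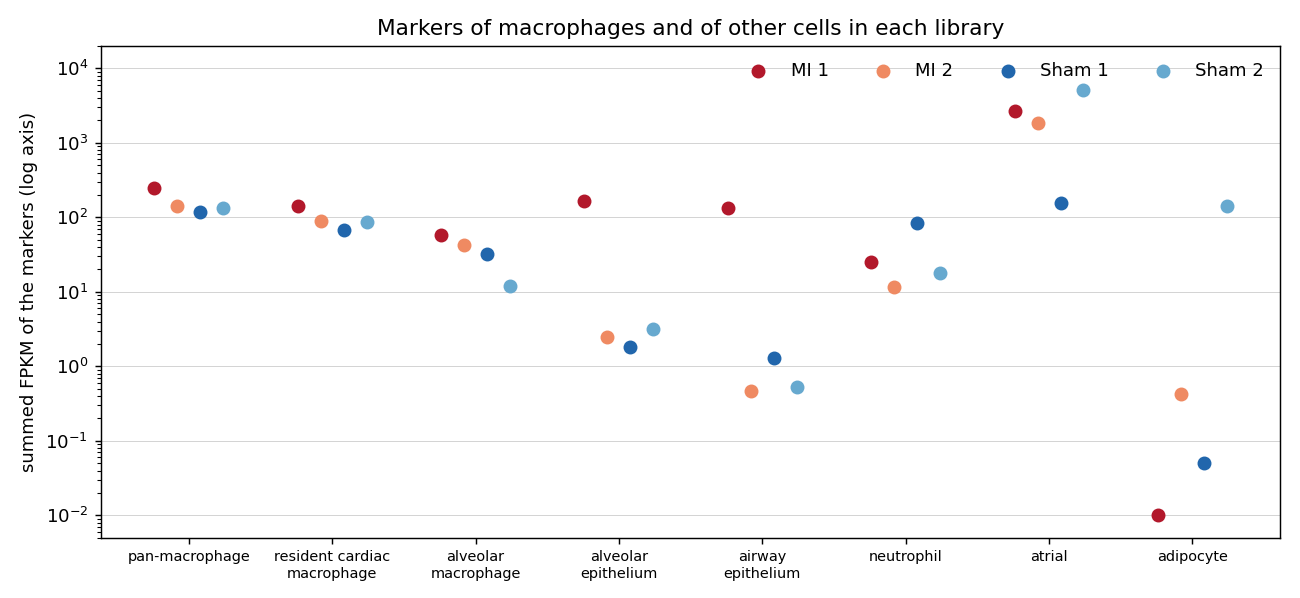
Summed FPKM (log axis) of 8 marker lists in each library, MI replicates in red and orange, Sham replicates in dark and light blue. The alveolar and airway epithelial sums stand out in MI replicate 1 (166 and 136 FPKM), the fat sum in Sham replicate 2 (143 FPKM) and the neutrophil sum in Sham replicate 1 (85.2 FPKM).

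Most of the 10 genes were highest in MI replicate 1, while MI replicate 2 lay close to the Sham hearts. MI replicate 1 had the highest level of 9 of the 10, all but Cd14, on the scale of CPM (estimated counts scaled to library size after normalization by the trimmed mean of M values, TMM). The same was true of 27.2% of all 18475 genes tested. MI replicate 2 lay above both Sham libraries for 3 genes (Lyz2, Tyrobp and Ms4a7) and below both for 3 (Gpnmb, Cd68 and Cd14), against 34.9% and 32.2% of all genes. In edgeR's quasi-likelihood test 0 of the 10 passed an adjusted p under 0.05, as did 0.0% of all genes. At an unadjusted p under 0.05, 1 of them was higher in MI (Ms4a7), against 7.12% of all genes, and 1 was lower (Cd14), against 4.51%. DESeq2 called 0 of the 10, where it called 2.18% of all genes higher and 1.26% lower. The median log2 difference of the 10 was 0.58, against 0.0031 over all genes tested. Without MI replicate 1 the median of the 10 was 0.083, and at an unadjusted p under 0.05 0 of them were higher and 1 (Cd14) was lower, against 2.32% and 2.25% of all genes.

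For 3 of the 10 the CPM of each MI library exceeded that of each Sham library (Lyz2, Tyrobp and Ms4a7), as it did for 24.9% of all genes. For 1, Cd14, it was lower, as for 21.9% of all genes. The count of 3 was 9 without MI replicate 2 (36.8% of all genes), 6 without Sham replicate 1 (39.6%) and 4 without Sham replicate 2 (40.4%). In FPKM, Lgals3 and Apoe joined them, making 5 above and 1 below, against 39.0% and 8.89% of all genes. The difference between these scales runs through the whole table. Mitochondrial transcripts took 27.3% and 30.9% of the counts in the MI libraries and 34.0% and 32.6% in the Sham libraries. With them removed and the rest scaled by its total, without TMM, the median log2 difference of all genes moved up by 0.14. Of the genes at an unadjusted p under 0.05, 61.2% were higher in MI with TMM scaling, against 82.0% without mitochondrial transcripts and 86.9% in limma on log2(FPKM + 1). The sign of each of the 10 differences was the same under these scalings.

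**Figure D2:**
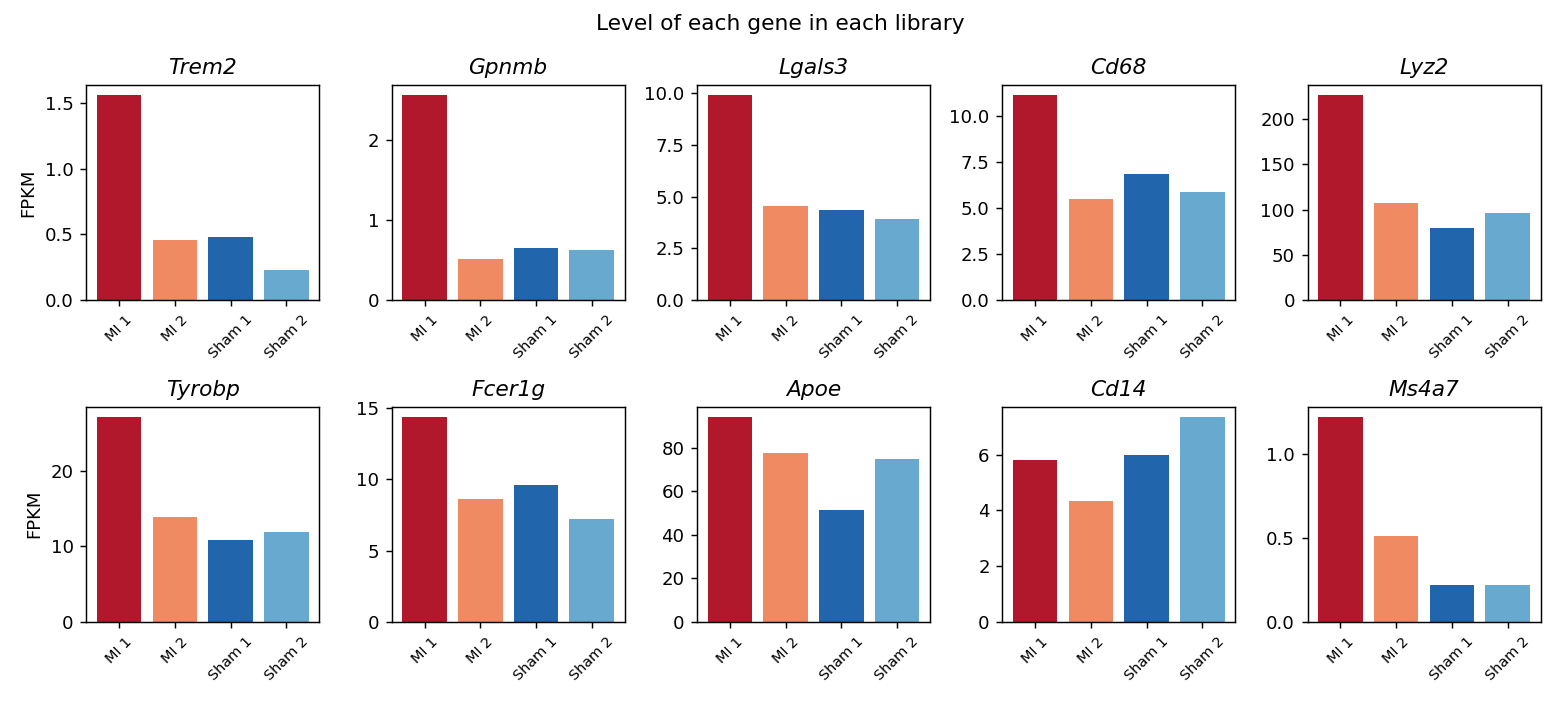
FPKM of each of the 10 genes in each library (bars start at 0, 1 bar per library, separate axis per gene). MI replicate 1 is the tallest bar for every gene but Cd14, and MI replicate 2 is near the Sham bars except for Ms4a7, at 0.51 FPKM against 0.22 FPKM in each Sham library, and Cd14, at 4.34 FPKM against 6 and 7.35 FPKM.

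**Figure D3:**
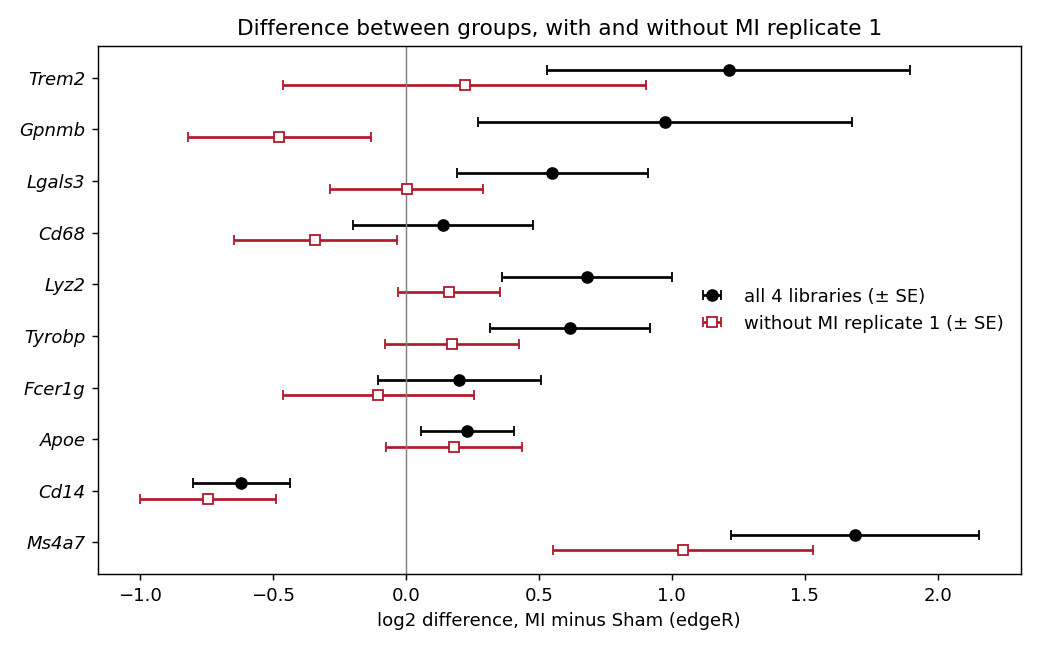
Log2 difference, MI minus Sham, of each gene with its standard error from edgeR, over all 4 libraries (filled circles) and without MI replicate 1 (open squares). Without that library Ms4a7 stays above 0, at 1.04, Cd14 stays below 0, at -0.74, and Gpnmb, Cd68 and Fcer1g change sign.

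The sequences before the annotated start of 4 of the genes are shown because their levels carry the patterns that follow. Ms4a7 had the highest group difference of the 10, Trem2 and Gpnmb stood out most in MI replicate 1, and Cd68 marks macrophages at large. Each line gives the 250 bases before a RefSeq start (GRCm38.p6), 5′ to 3′ on the gene's strand. Capitals mark matches to GAGGAA, the purine-rich core bound by the macrophage factor PU.1, or to TGANTCA, the AP-1 site.
Trem2: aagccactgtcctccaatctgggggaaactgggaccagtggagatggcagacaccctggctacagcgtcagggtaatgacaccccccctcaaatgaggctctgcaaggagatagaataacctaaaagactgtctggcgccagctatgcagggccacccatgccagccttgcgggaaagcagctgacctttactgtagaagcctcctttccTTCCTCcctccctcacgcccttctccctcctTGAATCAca
Gpnmb: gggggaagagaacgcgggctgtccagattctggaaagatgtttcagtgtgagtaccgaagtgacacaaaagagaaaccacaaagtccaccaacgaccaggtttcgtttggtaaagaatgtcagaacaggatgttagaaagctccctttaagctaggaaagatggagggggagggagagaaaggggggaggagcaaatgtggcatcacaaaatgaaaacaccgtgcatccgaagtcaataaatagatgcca
Cd68: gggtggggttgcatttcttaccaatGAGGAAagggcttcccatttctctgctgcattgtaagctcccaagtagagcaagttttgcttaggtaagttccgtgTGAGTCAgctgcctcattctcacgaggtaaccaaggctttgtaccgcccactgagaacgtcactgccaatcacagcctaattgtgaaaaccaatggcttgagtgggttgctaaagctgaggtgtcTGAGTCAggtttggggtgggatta
Ms4a7: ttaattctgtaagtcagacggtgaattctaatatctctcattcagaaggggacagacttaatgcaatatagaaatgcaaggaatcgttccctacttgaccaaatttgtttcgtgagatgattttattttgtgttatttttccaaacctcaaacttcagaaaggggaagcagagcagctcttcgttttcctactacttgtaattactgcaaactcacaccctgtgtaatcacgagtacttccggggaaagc
These windows are chr17:48346151-48346400 (plus strand), chr6:49036268-49036517 (plus), chr11:69666171-69666420 (minus) and chr19:11336147-11336396 (minus). The Trem2 window held GAGGAA on the opposite strand 40 bases before the start and TGANTCA 9 bases before it. The Cd68 window held GAGGAA 225 bases before the start and TGANTCA at 149 and at 24 bases. The Gpnmb and Ms4a7 windows held no match, although a second annotated Ms4a7 window had TGANTCA 81 bases before it. Searched on both strands in 32851 windows of this length, GAGGAA was found in 23.3% and TGANTCA in 6.75%. CACGTG, the E-box read by the lysosomal regulators of the MITF family, was found in 6.02% of all windows and in none of the 11 windows of 8 of the 10 genes in the RefSeq table. No match overlapped another.

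Trem2, the lipid and debris receptor (ENSMUSG00000023992, chromosome 17, 48346401 to 48354147, plus strand, GRCm38), had 7.37 and 2.45 CPM in MI replicates 1 and 2, against 2.96 and 1.28 CPM in Sham replicates 1 and 2. MI replicate 1 was 3.01 times MI replicate 2, and MI replicate 2 lay between the Sham libraries, so the groups overlapped. Its log2 difference was 1.21 ± 0.68 (SE; edgeR adjusted p = 0.545), and 0.22 ± 0.68 without MI replicate 1. Counts were low, at 615 and 190 in MI and 188 and 83 in Sham, and at an apparent 4 counts per fragment the last is about 20.8 fragments. The Sham libraries differed from each other 2.31-fold.

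Tyrobp, the adapter that signals for TREM2 (ENSMUSG00000030579, chromosome 7, 30413760 to 30417582, plus strand), had 17.3 and 9.97 CPM in MI, against 8.95 and 8.84 CPM in Sham. The groups did not overlap, and MI replicate 2 exceeded the Sham libraries by 1.11-fold and 1.13-fold. Its log2 difference was 0.62 ± 0.30 (edgeR adjusted p = 0.502) and 0.17 ± 0.25 without MI replicate 1. Fcer1g, the Fc receptor adapter (ENSMUSG00000058715, chromosome 1, 171229572 to 171234365, minus strand), had 12.01 and 8.09 CPM in MI, against 10.4 and 7.06 CPM in Sham. Its groups overlapped, since Sham replicate 1 lay above MI replicate 2. The difference of 0.20 ± 0.31 (edgeR adjusted p = 0.835) turned to -0.10 with MI replicate 1 left out and to -0.05 with Sham replicate 2 left out.

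Of 18 tested ITAM signalling genes, 3 were higher (7.12% of all genes) and 0 lower (4.51%) at an unadjusted p under 0.05, 0 were called by edgeR or DESeq2, and the median log2 difference was 0.30 (0.06 without MI replicate 1). The 3 were the phospholipases Plcg1 (0.39 ± 0.13) and Plcg2 (0.64 ± 0.21) and the lipid phosphatase Inpp5d (0.55 ± 0.19). Syk, the kinase that both adapters recruit, had 4.2 and 4.08 FPKM in MI, against 4.61 and 3.32 FPKM in Sham. It was named after its values were seen, as the direct partner of the adapters. Of 18 tested receptors that pair with TYROBP or FCER1G, 1 was higher (7.12% of all genes) and 0 lower (4.51%) at an unadjusted p. Their median was 0.17 (-0.17 without MI replicate 1). The higher gene was Cd300c2, a CD300 family receptor, with 3.66 and 1.41 FPKM in MI, against 0.93 and 0.63 FPKM in Sham (1.43 ± 0.54). Fcgr3, the low-affinity IgG receptor and the most abundant of the list, had 16 and 8.12 FPKM in MI, against 9.76 and 8.15 FPKM in Sham (0.18 ± 0.32).

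Cd14, the co-receptor that passes bacterial lipopolysaccharide to TLR4, differed from the other genes in direction. It lies on chromosome 18 (ENSMUSG00000051439) and had 9.63 and 8.06 CPM in MI, against 12.9 and 14.3 CPM in Sham. Both MI libraries were below both Sham libraries. The log2 difference was -0.62 ± 0.18 (unadjusted p = 0.0207, adjusted p = 0.348 in edgeR). It lay between -0.74 and -0.48 with any 1 library left out. Without mitochondrial transcripts it was -0.48 (edgeR unadjusted p = 0.080). In limma it was -0.34 on log2(FPKM + 1) (unadjusted p = 0.130) and -0.39 on log2(FPKM + 0.1) (unadjusted p = 0.128). In FPKM the gap between the groups was narrow, with 5.82 and 4.34 in MI, against 6 and 7.35 in Sham. Cd14 is also made by neutrophils, whose markers summed highest in Sham replicate 1. Of the 8 tested neutrophil markers 0 had a positive log2 difference, against 9283 of all 18475 genes, and their median was -1.66. All 10 neutrophil markers summed to 85.2 FPKM in Sham replicate 1, and to 25 and 11.8 FPKM in MI. In Sham replicate 2, where Cd14 was highest, they summed to 17.8 FPKM. The part of neutrophils in the Cd14 difference was not tested. A list of 14 genes held the TLR4 complex, its adapters and signalling genes, and the related receptors Tlr1, Tlr2, Tlr6 and Cd180. At an unadjusted p, 0 of them were higher (7.12% of all genes) and 1 was lower (4.51%). Their median log2 difference was 0.22 (0.15 without MI replicate 1). The lower gene was the kinase Irak1 (-0.55 ± 0.13). Tlr4 itself, named after its values were seen, had 2.05 and 2.11 FPKM in MI, against 1.31 and 0.26 FPKM in Sham (1.14 ± 0.77).

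Among genes of the phagocytic and lysosomal machinery, Gpnmb stood out in MI replicate 1. GPNMB is a transmembrane glycoprotein of late endosomes and lysosomes (ENSMUSG00000029816, chromosome 6, 49036546 to 49070929, plus strand). It had 16.0 and 3.55 CPM in MI, against 5.30 and 4.62 CPM in Sham, so MI replicate 1 was 4.50 times MI replicate 2, which was the lowest of the 4. The log2 difference was 0.98 ± 0.70 (edgeR adjusted p = 0.632), and -0.48 ± 0.34 without MI replicate 1. GPNMB is also made by pigment cells, whose 7 markers summed to 6.56 and 3.98 FPKM in MI, against 6.64 and 9.85 FPKM in Sham. Dct, an enzyme of pigment synthesis, had 0.89 and 0.61 FPKM in MI, against 0.71 and 0.75 FPKM in Sham, and Mlana was highest in Sham replicate 2, at 6.17 FPKM. Tyrp1, another such enzyme, had 1.02 and 0 FPKM in MI, against 0.71 and 1.3 FPKM in Sham, and the pigment granule protein Pmel had 0.56 and 0.16 FPKM in MI, against 0.51 and 0.59 FPKM in Sham. Both were lowest in MI replicate 2, as Gpnmb was. Without Mitf, a regulator that other cells also express, the sums were 3.14 and 0.77 FPKM in MI, against 1.98 and 8.82 FPKM in Sham. The part of pigment cells in the Gpnmb values was not tested.

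Cd68, a heavily glycosylated protein of macrophage lysosomes (ENSMUSG00000018774, chromosome 11, 69664213 to 69666153, minus strand), had 13.4 and 7.42 CPM in MI, against 10.6 and 8.24 CPM in Sham. MI replicate 1 was the highest and MI replicate 2 the lowest library, and the difference of 0.14 ± 0.34 (edgeR adjusted p = 0.902) turned to -0.34 with MI replicate 1 left out and to -0.03 with Sham replicate 2 left out. Of 24 lysosomal genes, 0 were called by edgeR or DESeq2, and the median log2 difference was 0.21 (0.06 without MI replicate 1). The most abundant, the saposin precursor Psap, had a log2 difference of -0.18 ± 0.15.

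Lyz2, the lysozyme of macrophages and other myeloid cells (ENSMUSG00000069516, chromosome 10, 117277331 to 117282321, minus strand), had the highest deposited FPKM of the 10 in every library. It had 285 and 151 CPM in MI, against 130 and 142 CPM in Sham. The groups did not overlap, but MI replicate 2 exceeded the Sham libraries by 1.17-fold and 1.07-fold, and MI replicate 1 by 2.19-fold and 2.00-fold. The log2 difference was 0.68 ± 0.32 (edgeR adjusted p = 0.487), and 0.16 ± 0.19 without MI replicate 1. The neighbouring paralog Lyz1 had 2.15 and 0.51 FPKM in MI, against 0.54 and 2.05 FPKM in Sham. The longest open reading frames of the 2 annotated transcripts were identical at 95.1% of 447 aligned bases. Of the 1267 windows of 50 bases in the Lyz2 transcript, 195 (15.4%) also occur in Lyz1, so reads may have been split between them and the values of both genes are uncertain.

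Lgals3, galectin 3, a sugar-binding protein that gathers on damaged lysosomes (ENSMUSG00000050335, chromosome 14, 47367751 to 47386160, plus strand), had 17.6 and 9.05 CPM in MI, against 10.1 and 8.12 CPM in Sham. MI replicate 2 lay between the Sham libraries. The log2 difference of 0.55 ± 0.36 (edgeR adjusted p = 0.593) was 0.0029 without MI replicate 1. Of 6 tested galectin genes, Lgals3 included, 0 were higher (7.12% of all genes) and 1 was lower (4.51%) at an unadjusted p. The lower gene was the gut-type galectin Lgals4 (-0.81 ± 0.28). The median log2 difference of the 6 was 0.05. It was -0.02 when Lgals3bp, a galectin-3 binding protein that is no galectin, was counted with them. Galectin 1 (Lgals1), the most abundant, had 240 and 183 FPKM in MI, against 142 and 184 FPKM in Sham.

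Apoe encodes apolipoprotein E, which carries cholesterol out of lipid-loaded macrophages (ENSMUSG00000002985, chromosome 7, 19696109 to 19699188, minus strand). It was the steadiest of the 10 between the MI libraries. Apoe had 192.1 and 177.6 CPM in MI, against 136.5 and 178.5 CPM in Sham, and Sham replicate 2 lay just above MI replicate 2. Its log2 difference was 0.23 ± 0.18 (edgeR adjusted p = 0.649), 0.18 without MI replicate 1, 0.05 without Sham replicate 1 and 0.44 without Sham replicate 2. Liver markers were at 0 for 4 of 7 genes in Sham replicate 2. Albumin (Alb) had 10.5 and 7.88 FPKM in MI, against 7.79 FPKM in Sham replicate 1, and was listed at 0 in Sham replicate 2. In CPM, 6 of the 7 were lowest in Sham replicate 2. The exception, Ahsg, was highest there, at 5.07 FPKM, against 3.16 FPKM in Sham replicate 1 and 2.48 and 3.06 FPKM in MI. The part of liver transcripts in the Apoe values was not tested.

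Of 21 tested genes of lipid efflux and storage, 2 were higher (7.12% of all genes) and 1 lower (4.51%) at an unadjusted p. Their median was -0.03 (0.05 without MI replicate 1). The higher ones were Fabp5, a fatty acid carrier (0.50 ± 0.16), and Soat1, which stores cholesterol as esters (0.78 ± 0.27), and the lower one was Abca1, the cholesterol exporter (-0.44 ± 0.15). Of 25 other genes of the lipid-associated macrophage state, 6 were higher (7.12% of all genes) and 0 lower (4.51%) at an unadjusted p, with a median of 0.36 (0.04 without MI replicate 1). DESeq2 called 4 of them higher (2.18% of all genes) and edgeR 0. The 3 of smallest p were Anxa5, annexin A5 (0.61 ± 0.12), Axl, a receptor for dying cells (0.70 ± 0.14), and Cd9, a tetraspanin (0.72 ± 0.14). Their differences without MI replicate 1 were 0.64, 0.70 and 0.61, and each is also expressed by other heart cells such as fibroblasts. In CPM, MI replicate 1 exceeded MI replicate 2 for 22 of the 25, with a median ratio of 1.26. For 3 it did not, among them Lpl, the lipoprotein lipase that heart muscle also makes, at a ratio of 0.77. The next 3 genes of the list were named after their values were seen, and their ratios were above that median. Clec7a, the fungal sugar receptor, had 1.81 and 0.39 FPKM in MI, against 0.56 and 0.36 FPKM in Sham. Itgax, the integrin CD11c, had 0.41 and 0.07 FPKM in MI, against 0.09 and 0.22 FPKM in Sham. Spp1, osteopontin, had 5.93 and 1.96 FPKM in MI, against 20.6 and 0.5 FPKM in Sham, so its highest library was Sham replicate 1.

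A further list held receptors and bridging proteins for engulfing dying cells and genes of the engulfing machinery inside the cell. It also held the pair Cd47 and Sirpa, which restrains engulfment. Of its 27 tested genes, 7 were higher (7.12% of all genes) and 0 lower (4.51%) in MI at an unadjusted p under 0.05. DESeq2 called 4 of them higher (2.18% of all genes) and edgeR 0. The groups did not overlap, with MI higher, for 15 (24.9% of all genes). The median log2 difference was 0.45, and 0.25 without MI replicate 1. Itgb5, an integrin subunit that binds the bridging protein MFGE8, had 40.2 and 30.2 FPKM in MI, against 16.9 and 17.1 FPKM in Sham (0.82 ± 0.15). Anxa1, annexin A1, had 18.0 and 14.0 FPKM in MI, against 7.79 and 6.68 FPKM in Sham (0.91 ± 0.18). Many of these genes are also expressed by fibroblasts, whose 8 markers summed to 425 and 278 FPKM in MI, against 104 and 159 FPKM in Sham. Their part in these differences was not tested. Cd36, a scavenger receptor that heart muscle and endothelium also use for fatty acid uptake, had 211 and 237 FPKM in MI, against 265 and 199 FPKM in Sham (-0.28 ± 0.25).

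Ms4a7, a tetraspan membrane protein of macrophages (ENSMUSG00000024672, chromosome 19, 11321039 to 11336144, minus strand), had the highest group difference of the 10. It had 5.20 and 2.43 CPM in MI, against 1.26 and 1.11 CPM in Sham. The groups did not overlap, and MI replicate 2 exceeded the Sham libraries by 1.93-fold and 2.19-fold. The log2 difference was 1.69 ± 0.47 (unadjusted p = 0.0161, adjusted p = 0.341 in edgeR), and 1.04 ± 0.49 (unadjusted p = 0.107) without MI replicate 1. DESeq2 gave an adjusted p of 0.0609. The counts behind it were small, at 434 and 188 in MI and 80 and 72 in Sham, the last 2 being about 20 and 18 fragments. Of 9 other genes of the family tested, 1 was higher in MI with no overlap of the groups (24.9% of all genes) and 2 were lower (21.9%). At an unadjusted p, 1 was higher (Ms4a6b, 0.63 ± 0.23), against 7.12% of all genes, and 0 were lower, against 4.51%. Their median was 0.23, and 0.14 without MI replicate 1. Ms4a4a had 7.99 and 6.84 FPKM in MI, against 9.83 and 2.08 FPKM in Sham, and Ms4a6d had 6.23 and 4.8 FPKM in MI, against 6.22 and 1.51 FPKM in Sham. Both were lowest in Sham replicate 2.

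Set against the summed pan-macrophage genes of each library, Ms4a7 was higher and Cd14 lower in both MI libraries. Each gene's FPKM was divided by the summed FPKM of the 15 pan-macrophage genes in the same library. In MI replicate 1, C1qb, C1qa, Ctss and C1qc made up 28.6%, 27.8%, 13.7% and 11.8% of that sum. The percentages below are therefore largely ratios to these few genes. Ms4a7 came to 0.490% and 0.359% in MI, against 0.187% and 0.165% in Sham. Cd14 came to 2.34% and 3.06% in MI, against 5.11% and 5.51% in Sham. For both genes the MI and Sham libraries did not overlap. The pan-macrophage sum was 249 and 142 FPKM in MI, against 118 and 133 FPKM in Sham. Cd14 was already lower in FPKM in both MI libraries, so its lower percentages there followed from the larger sum and add no support. Tyrobp was nearly level, at 10.9% and 9.82% in MI, against 9.18% and 8.89% in Sham. Lyz2 came to 91.1% and 75.8% in MI, against 67.8% and 72.5% in Sham. On this scale 3 of the 10 (Ms4a7, Tyrobp and Lyz2) were higher in MI with no overlap, as were 7.96% of all genes. In turn 1 (Cd14) was lower with no overlap, as were 32.8%. Dividing by a sum that was higher in both MI libraries moves genes at large down, so these shares are no neutral background for macrophage genes. Trem2 and Gpnmb remained highest in MI replicate 1, at 0.627% and 1.03%. Their other values were 0.324% (MI replicate 2), 0.408% and 0.172% (Sham) for Trem2, and 0.359% (MI replicate 2), 0.553% and 0.472% (Sham) for Gpnmb. Fcer1g and Cd68 were highest in Sham replicate 1, at 8.17% and 5.81%, and Apoe was lowest in MI replicate 1, at 37.8%.

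**Figure D4:**
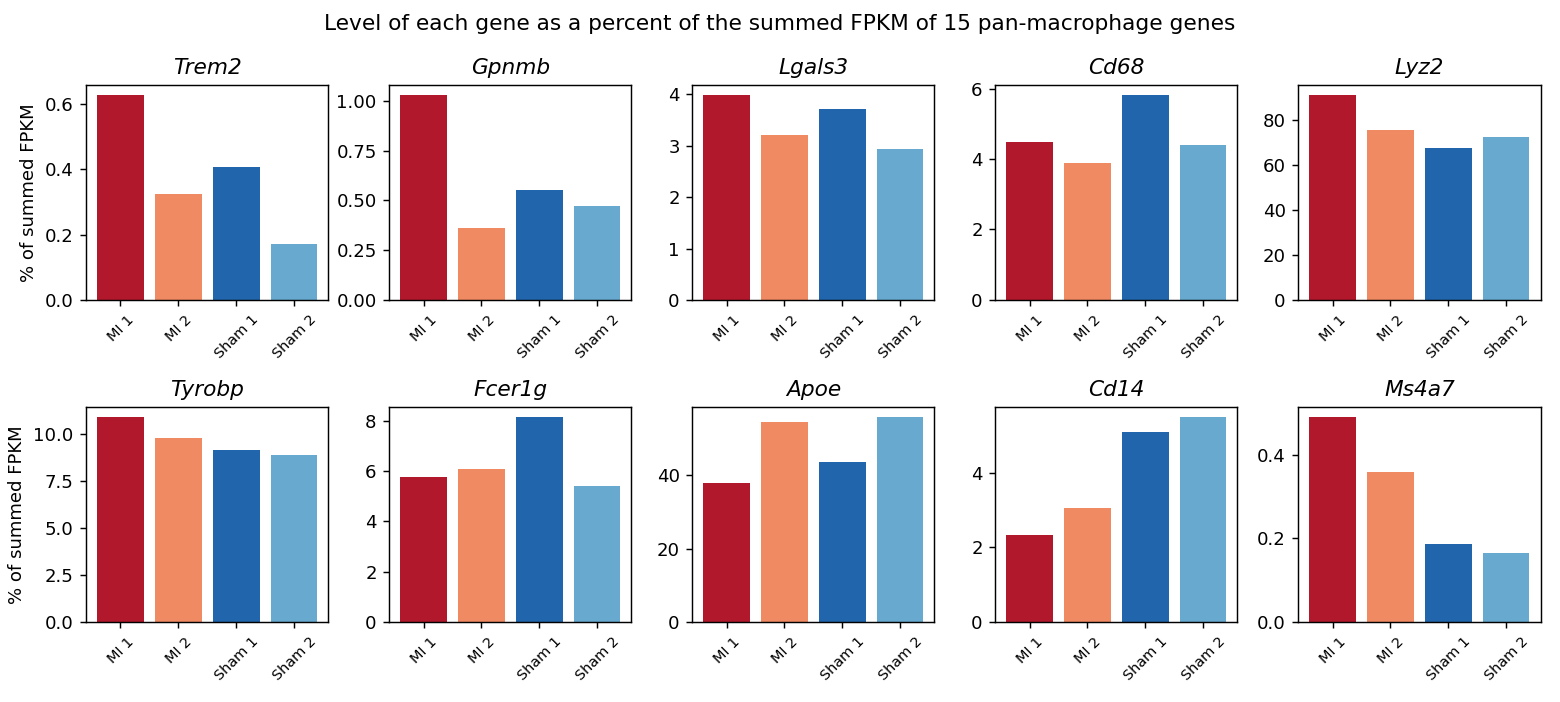
FPKM of each gene as a percent of the summed FPKM of 15 pan-macrophage genes in the same library (bars start at 0, separate axis per gene). Ms4a7 is higher and Cd14 lower in both MI libraries than in both Sham libraries, while Trem2 and Gpnmb are highest in MI replicate 1.

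Between the MI libraries the 10 genes spread widely. The ratio of MI replicate 1 to MI replicate 2 in CPM was 4.50 for Gpnmb, 3.01 for Trem2 and 2.15 for Ms4a7, then 1.94 for Lgals3, 1.88 for Lyz2, 1.81 for Cd68, 1.74 for Tyrobp, 1.49 for Fcer1g, 1.19 for Cd14 and 1.08 for Apoe. Their median was 1.84. The median was 1.53 over the pan-macrophage genes, 1.35 over resident cardiac macrophage markers and close to even over all genes tested. Alveolar macrophage markers gave 2.88 over the 10 of 11 tested that had counts in MI replicate 2. The chitinase-like Chil3, which monocytes and neutrophils also make, had 15.1 and 0.03 FPKM in MI, against 2.74 and 0.03 FPKM in Sham, while the surface lectin Siglecf, too low to be tested, was listed at 0 in both MI libraries. The scavenger receptor Marco, like Siglecf named after its values were seen, had 2.85 FPKM in MI replicate 1 and was listed at 0 in MI replicate 2. The 3 alveolar macrophage markers of smallest p differed in direction. Plet1 had 0.5 and 0.12 FPKM in MI, against 0.61 and 1.11 FPKM in Sham (-1.68 ± 0.76). Ear2 had 1.41 and 0.68 FPKM in MI, against 0.26 and 0.28 FPKM in Sham. Atp6v0d2 had 0.55 and 0.1 FPKM in MI, against 0 and 0.04 FPKM in Sham. Pan-macrophage genes at large showed small group differences. Of 15, 1 was higher (7.12% of all genes) and 0 lower (4.51%) at an unadjusted p. The higher gene was Cx3cr1, the fractalkine receptor (2.03 ± 0.76). The median of the 15 was 0.41, and 0.09 without MI replicate 1. The 10 resident markers gave 0 higher and 0 lower, against the same shares of all genes. Their median was 0.20, which turned to -0.11 without MI replicate 1. Of the 10, 6 had a positive log2 difference. Gas6, the most abundant, had 75.8 and 54.8 FPKM in MI, against 34.8 and 50.1 FPKM in Sham (0.40 ± 0.19). Cbr2 had 25.8 and 7.67 FPKM in MI, against 5.63 and 9.55 FPKM in Sham, and Igf1 1.91 and 0.98, against 0.49 and 1.21. Lyve1 had 14.8 and 9.95 FPKM in MI, against 8.27 and 9.96 FPKM in Sham.

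Per length, the 10 genes fell into 3 ranges. In FPKM, Lyz2, Apoe and Tyrobp were above 10 in every library, at 227, 94.1 and 27.2 in MI replicate 1. Cd68, Fcer1g, Lgals3 and Cd14 lay between 3.9 and 14.4, and their order changed from library to library. Gpnmb, Trem2 and Ms4a7 lay between 0.22 and 2.56. The length behind these values matters for the order of the genes. The deposited FPKM and counts imply gene lengths 1.09 to 1.10 times the sum of all annotated exon bases for each of the 10. For Trem2 that sum is 4946 bases, against 1088 for its longest coding transcript. On the coding length, Trem2 would stand at 7.09 and 2.09 FPKM in MI, against 2.18 and 1.05 FPKM in Sham, above Gpnmb in MI replicates 1 and 2 and Sham replicate 1. On the same length Apoe would stand at 118 FPKM in MI replicate 2 and 113 FPKM in Sham replicate 2. Lyz2 would be below it there, at 108 and 96.7 FPKM, but above it in MI replicate 1 and Sham replicate 1. Fcer1g would reach 18.4 FPKM in MI replicate 1. Comparisons of 1 gene between libraries do not depend on this length.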

How the data were processed

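Per the labels' protocols, poly(A) RNA from mouse hearts (2 MI, 2 Sham, day 28) was made into dUTP-marked libraries. The deposited table gives, for each gene and library, an estimated count (whole numbers) and an FPKM value, per the file headers, which the authors normalized for gene length and depth. The submitters' processing notes name HISAT2 2.0.4, StringTie 1.3.4d, UMI-tools and cutadapt 1.9. What each did, the build and the use of strand were not given in the sources used here. The GRCm38 annotation (GENCODE M21) holds 99.5% of the identifiers, and 8 of the 10 genes have the same start and end there. No other annotated gene overlaps them (0 found).

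The estimated counts pile up at multiples of 4. In MI replicate 1 a count of 4 is found in 1174 genes but a count of 3 in 331, with like numbers in the other libraries, so about 4 counts appear to stand for a fragment. Depth, at 66624106 to 75979320 counts, limits Trem2 and Ms4a7 most, and fragment numbers cover counting error only.

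After edgeR's low-count filter, filterByExpr with a minimum of 10 per library and 15 in all, 18475 genes remained. They were scaled by TMM and tested for group with the quasi-likelihood method of edgeR 4.0.16 (R 4.3.3, 2-sided), with Benjamini-Hochberg adjustment at 0.05 over all genes. The standard error comes from that fit. DESeq2 1.42.0 and limma 3.58.1 on log2(FPKM + 1), with pseudocounts of 1 and 0.1, were alternatives. The labels do not say whether replicates are separate animals, and p-values then reflect only how these libraries vary, which may be technical. With 2 against 2 an exact permutation test cannot go below 0.33. On counts simulated for this comparison (17780 genes), the test called 54.2% of genes given a log2 change of 2 and 90.9% of those given 4, and 4.62% of unchanged genes had an unadjusted p under 0.05.

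The 10 genes and the 26 marker and pathway lists (300 of 301 symbols measured) were chosen with earlier results of these data known, and lists overlap. Named were the 10 genes, and for each list described, genes from the up to 3 of highest mean FPKM and of smallest p. Not every gene that met this rule is given, so those named do not stand for their whole list. A result for 1 lysosomal gene is not reported here. Promoter sequences are RefSeq's (GRCm38.p6). Python 3.11.15 and Biopython 1.88 were used.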

Additional observations from a re-analysis of the deposited data

How the results depend on the processing

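Over the 10 genes and 12 alternatives, 115 of 120 values kept their sign and stayed short of an adjusted p under 0.05. The lowest adjusted p was 0.0609 (Ms4a7 in DESeq2). The 5 that changed sign came from leaving out a library: without MI replicate 1 the log2 differences were -0.48 for Gpnmb, -0.34 for Cd68 and -0.10 for Fcer1g, and without Sham replicate 2 they were -0.03 for Cd68 and -0.05 for Fcer1g. Leaving out 1 library in turn gave -0.48 to 1.70 for Gpnmb, -0.34 to 0.52 for Cd68 and -0.10 to 0.51 for Fcer1g. The cause was not tested. Genes called over the whole table numbered 0 in edgeR, 635 in DESeq2, and 0 to 10 with 1 library left out. None of these calls (0) was among the 10 genes. The median of the 10 was 0.083 to 0.97 with 1 library left out, against 0.58 over all libraries. The 2 scalings that moved it most gave 0.74 (mitochondrial transcripts removed) and 0.73 (limma, FPKM plus 0.1), and moved the median of all genes by 0.14 and 0.22. A count added after seeing the data, of genes with every MI library above every Sham library, was 3 to 9 with 1 library left out, against 3 over all libraries. It was 9 without MI replicate 2, where 36.8% of all genes did so, and 6 without Sham replicate 1, against 39.6%. Left-out fits used the same 18475 genes and assume that the lone library varies like the other group.

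The deviations of same-numbered libraries from their group means had a correlation of -0.056 over genes. With 2 libraries per group that also differ in tissue content, this value cannot decide whether the numbers pair them. With the replicate block 0 of the 10 genes and 0 of all genes were called, and the median of the 10 was 0.52.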
